A study of Mus musculus with 31 samples.

Results

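The proteasome is the main ATP-dependent protease of the cell, and the genes described here are the rows of the deposited count table whose symbols begin with Psma, Psmb, Psmc, Psmd, Psme, Psmf or Psmg, together with Pomp and Adrm1. They number 52 of 20544 gene symbols. One of them, Psmc3ip, shares the letters only, since it encodes a partner of the meiotic recombinases and no proteasome subunit, and Sem1, a small subunit of the 19S particle, lies outside the rule. The samples are 31 mouse embryos of the 2-cell stage, 16 control- and 15 SER-generated, each collected at 32 h post-insemination (HPI) and sequenced as an RNA library of its own. Sperm came from C57BL/6J males of 12 to 14 weeks and oocytes from superovulated CD1 females of 8 to 10 weeks. For the SER group (sperm energy restriction and recovery), sperm were held without glucose and pyruvate until they lost motility, for 15 to 45 min, and were then returned to complete medium. Control sperm went through the same steps in complete medium, and both were left with the oocytes for 4 h. Only the sperm were treated, so both groups share untreated oocytes and the same culture, and the embryos came from independent batches that neither the labels nor the columns name. No label names a parent for an embryo, so p-values measure the spread between embryos and not between animals.

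The 20S core is a barrel of a pair of outer alpha rings and a pair of inner beta rings, and Psmb5, Psmb6 and Psmb7 carry the cutting activities. The 19S particle caps the barrel. Its ATPase ring unfolds substrates, and its non-ATPase subunits bind and remove ubiquitin. Chaperones such as Pomp and the Psmg proteins build the core, and activators such as Psme3 and Psme4 open it without the 19S particle. In the early mouse embryo, ubiquitin-dependent degradation removes maternal proteins while control passes from stored maternal transcripts to the embryonic genome.

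Promoter sequence is shown for 4 genes, since 2 of them, Psmb5 and Psmd14, varied with most other proteasome genes between embryos and the other 2, Psmb3 and Psme3, varied against them. Each run holds 250 bases before and 50 bases after the RefSeq start on GRCm38.p6, read 5′ to 3′ on the strand of the gene. They lie at chr14:54617946-54618245 (minus strand) for Psmb5, chr2:61711444-61711743 (plus strand) for Psmd14, chr11:97703184-97703483 (plus strand) for Psmb3 and chr11:101315963-101316262 (plus strand) for Psme3. Capitals mark matches on either strand to TGACNNNGC, the core of the antioxidant response element, CCGGAAG, an ETS core, CCAAT, the NF-Y box, and TGCGCA, the repeated unit of the palindrome bound by nuclear respiratory factor 1.
Psmb5: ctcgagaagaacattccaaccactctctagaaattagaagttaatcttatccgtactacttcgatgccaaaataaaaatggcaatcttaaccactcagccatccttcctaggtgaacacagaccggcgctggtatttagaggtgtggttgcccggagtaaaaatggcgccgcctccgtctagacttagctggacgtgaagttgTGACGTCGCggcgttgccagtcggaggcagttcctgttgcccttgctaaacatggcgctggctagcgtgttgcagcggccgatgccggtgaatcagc
Psmd14: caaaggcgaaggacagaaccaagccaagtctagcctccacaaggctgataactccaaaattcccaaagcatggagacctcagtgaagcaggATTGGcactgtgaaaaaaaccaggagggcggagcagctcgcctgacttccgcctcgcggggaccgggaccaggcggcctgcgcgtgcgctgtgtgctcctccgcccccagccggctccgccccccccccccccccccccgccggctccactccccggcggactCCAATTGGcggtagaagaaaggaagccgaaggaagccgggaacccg
Psmb3: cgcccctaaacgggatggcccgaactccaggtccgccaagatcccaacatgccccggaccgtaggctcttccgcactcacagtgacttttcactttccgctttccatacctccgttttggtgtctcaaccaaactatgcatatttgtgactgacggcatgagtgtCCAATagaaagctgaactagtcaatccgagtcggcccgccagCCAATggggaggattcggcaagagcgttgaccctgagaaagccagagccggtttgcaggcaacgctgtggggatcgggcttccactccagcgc
Psme3: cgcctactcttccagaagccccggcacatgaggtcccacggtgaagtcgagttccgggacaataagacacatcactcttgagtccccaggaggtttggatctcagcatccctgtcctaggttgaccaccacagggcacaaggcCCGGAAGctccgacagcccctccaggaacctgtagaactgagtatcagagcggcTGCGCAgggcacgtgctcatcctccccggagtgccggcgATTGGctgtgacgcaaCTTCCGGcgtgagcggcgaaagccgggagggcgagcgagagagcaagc
The Psmb5 window held 1 match, to the antioxidant response element, and the Psme3 window held 4, of which 2 were ETS cores. The Psmd14 window held 3 CCAAT boxes, with a pair on opposite strands that overlap in 1 run, and the Psmb3 window held 2 CCAAT boxes. A window was found for 44 of the 52 genes and for 6920 of the 8571 genes tested below. The ETS core stood in 17 of the 44 (38.6%), in 22.5% of tested genes and in 9.93% of all 27025 genes of the RefSeq table. The antioxidant response element core stood in 7 (15.9%) against 17.4% of tested genes, CCAAT in 16 (36.4%) against 44.3%, and TGCGCA in 6 (13.6%) against 17.8%. Another 8 patterns were searched on both strands. The Sp1 box GGGCGG was found in 25 windows (56.8%) against 71.1% of tested genes, and TGANNNAGC in 10 (22.7%) against 14.7%. The TATA box TATAAA was found in 5 (11.4%) against 8.03%, the E-box CACGTG in 4 (9.09%) against 12.5%, GGTGACC in 3 (6.82%) against 5.2% and the E2F site TTTGGCGC in 1 (2.27%) against 1.2%. The cAMP response element TGACGTCA and the longer E-box GTCACGTG, which contains CACGTG, were found in 0 of the 44 against 3.82% and 5.22%. A match is a description of letters and was not tested as a binding site.

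Depth ran from 532945 to 3088396 counts per embryo. Its median was 955806 in control- and 1375557 in SER-generated embryos, so depth differed between the groups. A value of 3 counts corresponds to 5.63 CPM (counts scaled to a common total per library) in the shallowest and 0.971 CPM in the deepest library. In the markers of the stage, all 12 listed oocyte genes and 14 of 15 listed genes of zygotic activation were in the table. The summed oocyte list ran from 4152 to 15467 CPM in control- and from 5137 to 12743 CPM in SER-generated embryos, and the zygotic list from 45.3 to 1653 CPM and from 141 to 1323 CPM. Control replicate 4 and SER replicate 15 had the lowest zygotic sums, with 13610 and 12743 CPM of oocyte transcripts, and 10 of the 52 proteasome genes were at 0 in each, against 1 to 8 in the other embryos. Control replicates 1, 2 and 3 stood apart by the proteasome genes themselves, with a ratio of core to 19S transcripts of 0.791 to 1.66 against 0.262 to 0.592 in the other 28 embryos. They were thus picked for values of the genes described, and estimates without them are given as a description. Spearman's rho between transcript length and relative level across genes was -0.28, -0.16 and -0.26 in these and -0.20 to 0.19 in the other 28, so on this measure replicate 2 lay within the range of the others. The 10 cumulus markers summed to 10.6 to 1609 CPM in control- and 11.3 to 306 CPM in SER-generated embryos, highest in control replicate 5, the 8 macrophage markers to 0 to 47.1 and 0.927 to 161 CPM, and the 6 sperm markers to 0 to 21.1 and 0 to 30.9 CPM. Of the cumulus list, Amhr2 had 113 CPM over all embryos and Cyp11a1 106 ± 352 CPM (SD, n = 16) in the control group. Has2, Ptx3, Fshr and Pgr had 1 to 3 counts each over all embryos together. No cumulus, macrophage or sperm marker was at 0 in every embryo, and their part in the results was not tested.

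Transcripts of a complete constitutive 26S proteasome were present. Of the 52 genes, 36 had counts in every embryo, and 39 lay at or above the 75th percentile of 17706 genes ranked by CPM per kb of exon length, the scale used here to compare levels between genes. All 7 alpha, 7 constitutive beta and 18 19S genes passed the filter on low counts, as did 43 of the 52 genes in all. The median level of a gene with a count was 3.05 CPM per kb. Exon length is that of the principal transcript, and some ranks changed when all exons of a gene were merged (merged length).
In the alpha ring, which gates the core, levels ran from 17.2 ± 9.47 CPM per kb (SD, n = 31) for Psma3 to 75.3 ± 64.6 for Psma6, with a median of 43.03. In the beta ring they ran from 50.7 ± 38.3 CPM per kb for Psmb4 to 141 ± 74.3 for Psmb6, with a median of 87.9. By merged length Psmb3 was lowest (18.4) and Psmb2 highest (82.6). The median of the beta ring lay above that of the alpha ring in 29 of 31 embryos. The exceptions were control replicate 4 and SER replicate 15.
The catalytic subunits were read in nearly all embryos. Psmb6, the caspase-like subunit, lay between 54.8 and 243 CPM in control- (median 112) and between 28.6 and 250 CPM in SER-generated embryos (median 99.95). Psmb5, the chymotrypsin-like subunit, lay between 3.02 and 118 CPM (median 54.4) and between 0 and 198 CPM (median 61.3). Its lowest control value and its value of 0 were those of control replicate 4 and SER replicate 15. Psmb7, the trypsin-like subunit, lay between 6.04 and 326 CPM (median 90.1) and between 2.61 and 231 CPM (median 69.2), so it differed more between embryos than between groups, which overlapped for all 3 subunits. In the annotation, named pseudogenes exist for Psmb5, Psmb6 and Psmb7 (reads could be split with them), 109 exon bases of Psmb5 are shared with Mir686, and 405 exon bases of Psmb7 overlap Nek6 on the opposite strand. The counting is not stated to use strand, so such reads cannot be assigned with certainty.
Of the catalytic subunits of the immunoproteasome, which replace these in immune cells, Psmb8 and Psmb9 were close to absent and Psmb10 was not. Psmb8, the counterpart of Psmb5, had a count in 6 of 31 embryos, and Psmb9, the counterpart of Psmb6, in 7. Their highest values were 24.6 and 7.68 CPM, both in control replicate 5, which also had the highest sum of the cumulus list. The source of these reads was not tested. Psmb8 shares 498 exon bases with the antisense gene Gm20496 and Psmb9 212 with Tap1. Psmb10, the counterpart of Psmb7, was found in 27 embryos and passed the filter, with 9.84 CPM per kb and 11.6 ± 10.6 CPM (SD, n = 16) in the control group and 14.3 ± 13.3 CPM (SD, n = 15) in the SER group. Per kb, Psmb5 exceeded Psmb8 in 30 embryos, with both at 0 in SER replicate 15, Psmb6 exceeded Psmb9 in 31, and Psmb7 exceeded Psmb10 in 30, all but SER replicate 13. Psma8, the alpha subunit of germ cells, had 5 counts in all, in 3 embryos, while Psma7, its constitutive counterpart, had 2220. Psmb11, the catalytic subunit of the thymus, had counts in 16 embryos, at 2.27 ± 3.55 CPM in the control group and 3.88 ± 4.83 CPM in the SER group. These are shares of cDNA counts in a whole embryo, in which a transcript lost from 1 blastomere cannot be told apart from a lower level in both.

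**Figure D1:**
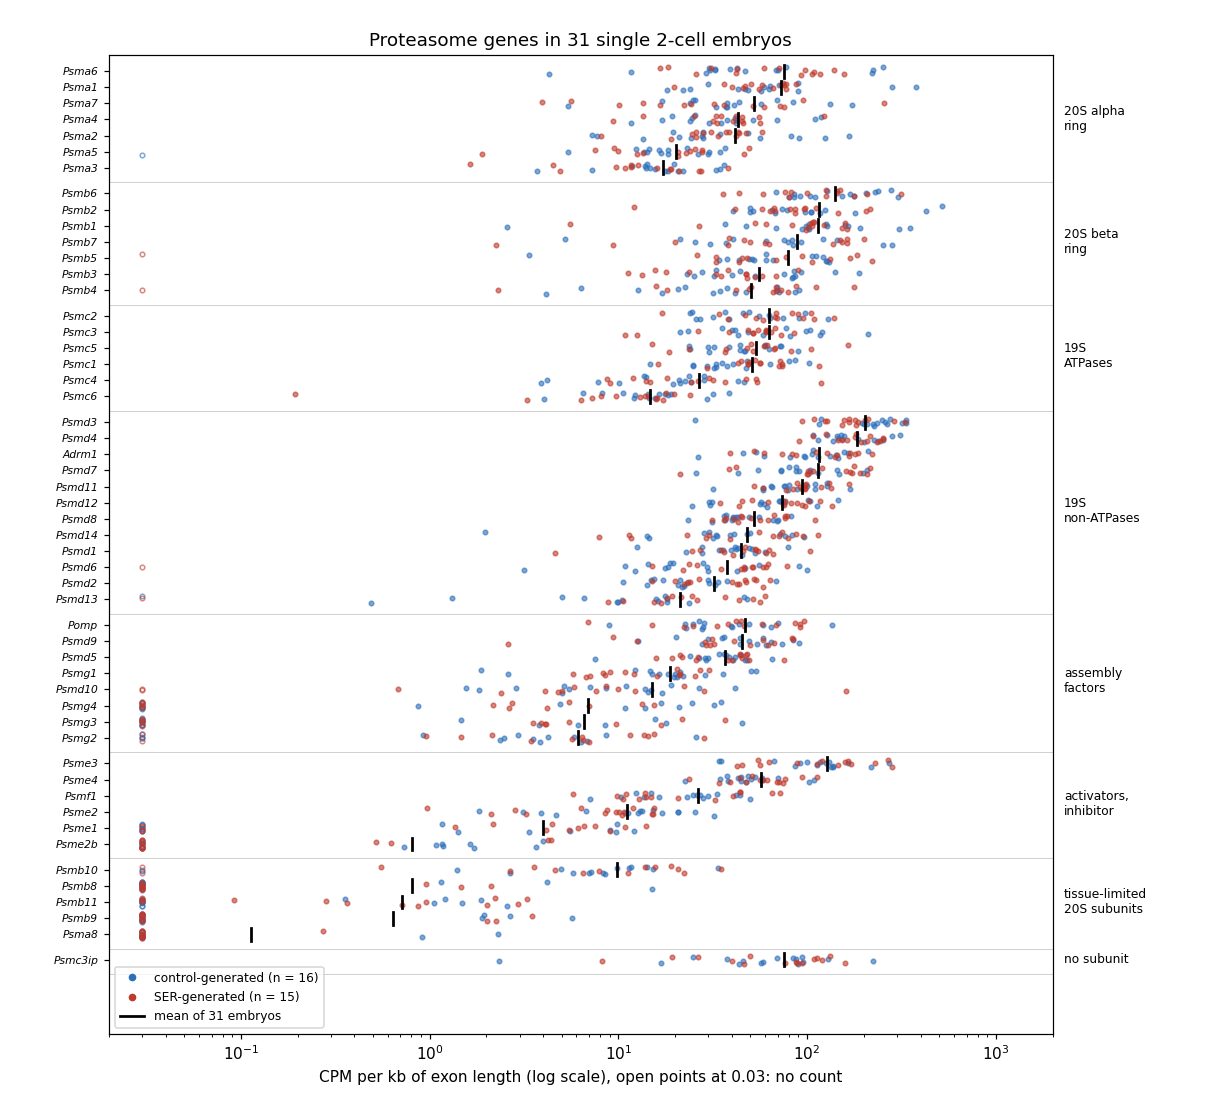
Level of each of the 52 genes in CPM per kb of exon length (log scale), with 1 point per embryo (blue, 16 control-generated, red, 15 SER-generated), open points on the left for no count and black bars for the mean of 31 embryos, grouped by role. The constitutive rings and the 19S genes lie between means of 14.7 and 202 CPM per kb, and Psma8, Psmb8, Psmb9, Psmb11 and Psme2b below 1.

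In the 19S particle, the 6 ATPases had levels from 14.7 ± 8.25 CPM per kb for Psmc6 to 63.0 ± 32.1 for Psmc2, with a median of 52.4. By merged length Psmc5 was the highest ATPase (50.7) and Psmc2 had 22.4. The 12 non-ATPases ran from 21.2 ± 17.1 CPM per kb for Psmd13 to 202 ± 76.2 for Psmd3, a scaffold of the lid, with a median of 63.0, and in 31 of 31 embryos their median was above that of the ATPases. Psmd3 was the highest of the 52 genes per kb in 11 embryos and Psmd4 in 9. By merged length the mean of Psmd3 (87.2) lay below those of Psmd4 (114) and Psme3 (115).
Psmd4, a ubiquitin receptor, lay between 188 and 545 CPM in control- (median 273) and between 159 and 443 CPM in SER-generated embryos (median 318), and it varied least of the 43 tested genes from lowest to highest embryo, by 3.43-fold. Adrm1, another ubiquitin receptor, lay between 40.7 and 323 CPM (median 164) and between 59.6 and 340 CPM (median 195). Psmd14, the subunit that cuts ubiquitin chains from substrates, lay between 3.02 and 148 CPM (median 55.8) and between 12.2 and 176 CPM (median 85.5), lowest in control replicate 4. The biological coefficient of variation estimated by edgeR had a median of 0.549 for ATPases and 0.491 for non-ATPases, against 0.691 and 0.713 for alpha and beta rings and 0.679 over all tested genes.
Among assembly factors, Pomp, which helps the core mature, had the highest level, 46.9 ± 29.5 CPM per kb, with 14.1 to 214 CPM in control- (median 53.7) and 10.9 to 152 CPM in SER-generated embryos (median 70.9). Psmd9 (45.4 CPM per kb) and Psmd5 (36.8), chaperones of the 19S base, followed, although 1849 exon bases of Psmd9 overlap the opposite-strand Gm26745. By merged length Pomp had 14.2, below Psmd5 (22.4), Psmd9 (16.3), Psmd10 (14.7) and Psmg1 (14.6). Psmd10, another such chaperone, reached 231 CPM in SER replicate 15, against at most 59.4 CPM in any other embryo. Psmg1 was found in all 31 embryos, whereas Psmg2, Psmg3 and Psmg4, its partners in building the alpha ring, were found in 25, 16 and 17 and did not pass the filter.
Of the activators, Psme3 (PA28 gamma, of the nucleus) had 128 ± 69.4 CPM per kb and Psme4 (PA200) 57.2 ± 23.0. Psme1 and Psme2, the pair that immune signals raise in other cells, had 3.99 ± 4.38 and 11.1 ± 7.20 CPM per kb, and both lay below Psme3 in 31 of 31 embryos. Psme3 lay between 90.7 and 722 CPM in control- (median 324) and between 113 and 754 CPM in SER-generated embryos (median 318). Psme4 lay between 147 and 710 CPM (median 312) and between 153 and 734 CPM (median 378). Psmf1, an inhibitor of the core, had 26.3 ± 17.0 CPM per kb. Psmc3ip lay between 3.02 and 288 CPM (median 82.5) and between 10.5 and 204 CPM (median 113).

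Summed over its 14 genes, the core made up 653 to 3095 CPM in control- (median 1005) and 621 to 1453 CPM in SER-generated embryos (median 1040). The 3 highest were control replicates 1, 2 and 3, with 3095, 2157 and 2526 CPM, above the highest of the other 28 embryos. The 18 genes of the 19S particle summed to 1521 to 3348 CPM (median 2322) and 1798 to 3320 CPM (median 2512), and control replicate 3 had the lowest value. The ratio of the sums was 1.35, 0.791 and 1.66 in control replicates 1, 2 and 3 and 0.262 to 0.592 in the other 28. Control replicates 12 and 8, whose rho with transcript length was -0.20 and -0.15, had ratios of 0.337 and 0.398, and the part of transcript length in the ratio was not tested. The ratio was 0.547 ± 0.397 (SD, n = 16) in control- and 0.409 ± 0.081 (SD, n = 15) in SER-generated embryos. Without control replicates 1, 2 and 3, the control value was 0.381 ± 0.066 (SD, n = 13). These 3 were picked by this same ratio, so that value is a description and allows no comparison of the groups. All 52 genes together took 0.494% ± 0.084 of the counts (SD, n = 16) in control- and 0.4997% ± 0.064 (SD, n = 15) in SER-generated embryos.

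**Figure D2:**
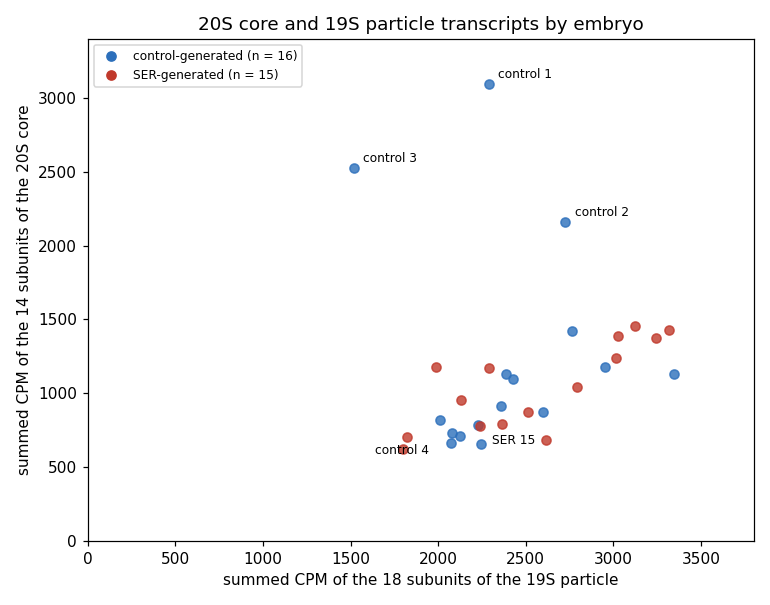
Summed CPM of the 14 genes of the 20S core (vertical) against the 18 genes of the 19S particle (horizontal), 1 point per embryo, blue for control- and red for SER-generated embryos. Control replicates 1, 2 and 3 lie at 2157 to 3095 CPM of the core, while the other 28 embryos lie between 621 and 1453.

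Across embryos, the proteasome genes did not vary as a single block. Spearman's rho was computed between the 43 tested genes over 31 embryos on log2(CPM + 1) with group means removed, and is given as a description, since the embryos share library preparation and differ in depth. The median over 903 pairs was 0.15, against 0.02 over all pairs of tested genes, and 14.7% of pairs exceeded 0.5, against 5.91% of all pairs. Within the core the median was 0.34, within the 19S particle 0.23 and between them 0.19. Without the 5 libraries that stand apart these were 0.26, 0.29 and 0.23, and the median over all member pairs was 0.15 against 0.01.
Most core and 19S genes varied in the same direction. Psmd14 had the highest median rho with the other tested proteasome genes (0.46), followed by Psmb5 (0.42), Psmd13 (0.41), Psma2 (0.40) and Psmb1 (0.37). The closest pairs in this set were Psmd13 and Psmd14 (0.81), both of the 19S particle, Psmb4 and Psmd14 (0.80) and Psmc2 and Psmd13 (0.80), and over the 26 other embryos these were 0.80, 0.77 and 0.78. Psmc3ip, which is no subunit, had a median of 0.36, within the range of the subunits.
Some genes varied the other way, although negative pairs were about as frequent as among all genes. Below -0.5 lay 5.98% of member pairs against 4.90% of all pairs, and in 26 embryos 4.21% against 4.42%. Psme3 was negatively correlated with 31 of the other 42 genes (30 in 26 embryos), against 47.2% of all tested genes (48.4% in 26). Its rho was -0.87 with Psmb7, -0.76 with Psma6, -0.71 with Psmb5 and -0.70 with Psmb1, and 0.83 with Psmd9 and 0.69 with Psmf1. Without the 5 libraries, the rho of Psme3 was -0.87 with Psmb7 and 0.74 with Psmd9. In control-generated embryos, Psme3 was highest in replicate 14, which had 722 CPM of Psme3 and 46.9 CPM of Psmb7, and lowest in replicate 3, with 90.7 and 167 CPM. In SER-generated embryos, replicate 14 had 754 CPM of Psme3 and 23.2 CPM of Psmb7, and replicate 6, with the lowest Psme3, 113 and 158 CPM. Psmb3, a structural beta subunit, was the member of the core that went furthest with this group. Its median rho was -0.31 and its rho with Psme3 0.59. Of the other core genes, Psma7 and Psmb6 also had negative medians (-0.17 and -0.08). Negative medians were found for 10 of the 43 genes, including Psmg1 (-0.29), Psmd10 (-0.08) and the 19S genes Psmd3 (-0.20) and Psmd1 (-0.10). The summed oocyte list had a mean of 7007 CPM over 31 embryos. Dppa3 (2839 CPM) and Btg4 (1941 CPM) weigh most in it, so correlations with the sum largely follow these 2 genes. Of the 43 genes, 30 were negatively correlated with the summed oocyte list (31 in 26 embryos), against 58.9% of tested genes outside the list (52.1% in 26). With the zygotic list this was 20 (32 in 26 embryos), against 53.9% (52.9% in 26), so the count for this list changed with the 5 libraries. The rho with the oocyte list was 0.50 for Psmb3 and -0.37 for Psmb5, and 0.50 and -0.56 in 26 embryos. With the zygotic list it was -0.51 for Psmd9 and 0.43 for Psmb7, and -0.35 and 0.18 in 26 embryos. High Psme3 largely went with 1 of the 3 clusters of embryos estimated from the other genes. Control replicates 5, 7, 14 and 16 of this cluster had 365 to 722 CPM of Psme3, against at most 364 CPM in other controls. SER replicates 8, 12, 13 and 14 had 425 to 754 CPM, while SER replicates 9 and 15, outside it, had 436 and 609 CPM. Psmb7 was at most 46.9 and 57.6 CPM in the control- and SER-generated embryos of this cluster. Outside it, control replicates 4 and 12 had 6.04 and 43.3 CPM of Psmb7, and SER replicates 10, 11 and 15 had 44.7, 53.7 and 10.9 CPM. The part of the clusters, of unnamed batches, of the embryo's stage and of library quality in these values was not tested.

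**Figure D3:**
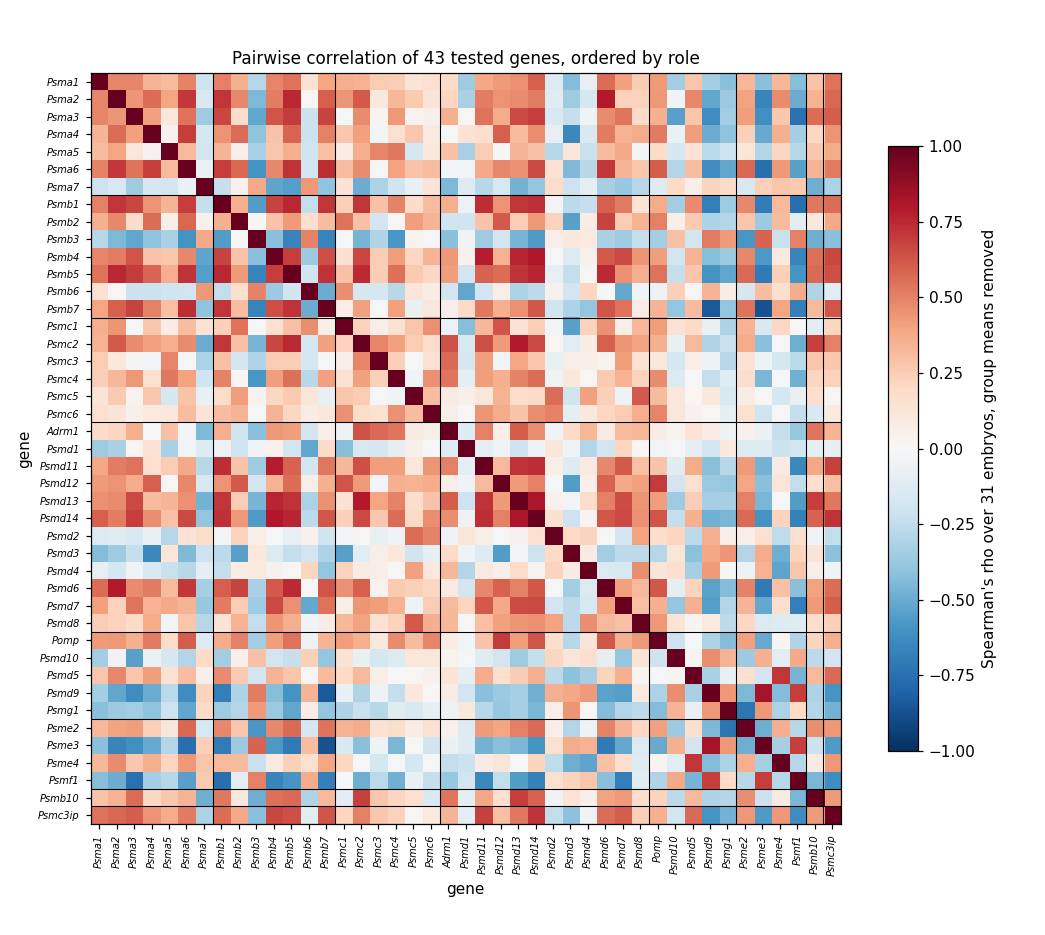
Spearman's rho between each pair of the 43 tested genes over 31 embryos, group means removed, with genes ordered by role and black lines between roles (red positive, blue negative). Psme3, Psmd9, Psmf1, Psmb3 and Psmg1 form blue bands against most core and 19S genes, with medians of -0.35 to -0.29.

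Both groups were compared to ask whether the sperm treatment altered these transcripts in the 2-cell embryo. With edgeR's quasi-likelihood test and Benjamini-Hochberg adjustment over 8571 genes, 0 of the 43 tested proteasome genes had an adjusted p under 0.1, and 0 of all genes (0.0%). An unadjusted p under 0.05 was found for 2 of the 43 against 5.73% of all tested genes, a share near the background. DESeq2 passed 0 proteasome genes, against 0.641% of the genes it adjusted, and a fit without the filter on low counts also 0, against 2.83%. With 3 clusters of embryos estimated from the other genes as covariates, 0 passed by edgeR (0.478% of genes) and 1, Psmb3, by DESeq2 (2.39%).
At an unadjusted p under 0.05, counts thinned to the smallest library gave 4 genes of 40 (5.95% of genes), library total as a covariate 6 of 43 (5.74%), and the clusters 4 of 43 by edgeR (11%) and 5 of 52 by DESeq2 (8.38%). The replicate number as a block, which leaves out control replicate 16 for want of a partner, gave 3 (3.7%), and 1 together with library total (2.45%).
Psmb3 lay between 17.7 and 145 CPM in control- (median 49.2) and between 8.62 and 68.9 CPM in SER-generated embryos (median 29.2). The groups overlapped, and 13 of 15 SER-generated embryos lay below the control median. Its log2 fold change was -0.85 (SE 0.34, edgeR, unadjusted p = 0.0162, adjusted p = 0.733), and it kept this sign in each alternative, from -1.01 to -0.47. The highest value was that of control replicate 4, without which the estimate was -0.64.
Psmd2, a scaffold of the 19S base, lay between 31.5 and 202 CPM in control- (median 65.1) and between 44.8 and 188 CPM in SER-generated embryos (median 126). In the SER group, 13 of 15 embryos had more than the control median, although the highest value was that of control replicate 4. The log2 fold change was 0.53 (SE 0.26, edgeR, unadjusted p = 0.0439, adjusted p = 0.868), with a range of 0.21 to 0.73 over the alternatives.
Psmd3 also had most of its SER-generated embryos, 13 of 15, below the control median. It lay between 54.6 and 722 CPM in control- (median 494) and between 202 and 705 CPM in SER-generated embryos (median 358), with a log2 fold change of -0.34 (SE 0.23, edgeR, adjusted p = 0.935). Its lowest control values, 54.6, 247 and 253 CPM, were those of replicates 3, 2 and 1. Without these the estimate was -0.52 (SE 0.18, edgeR). No p-value is given, since they were picked by a ratio that contains Psmd3.

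**Figure D4:**
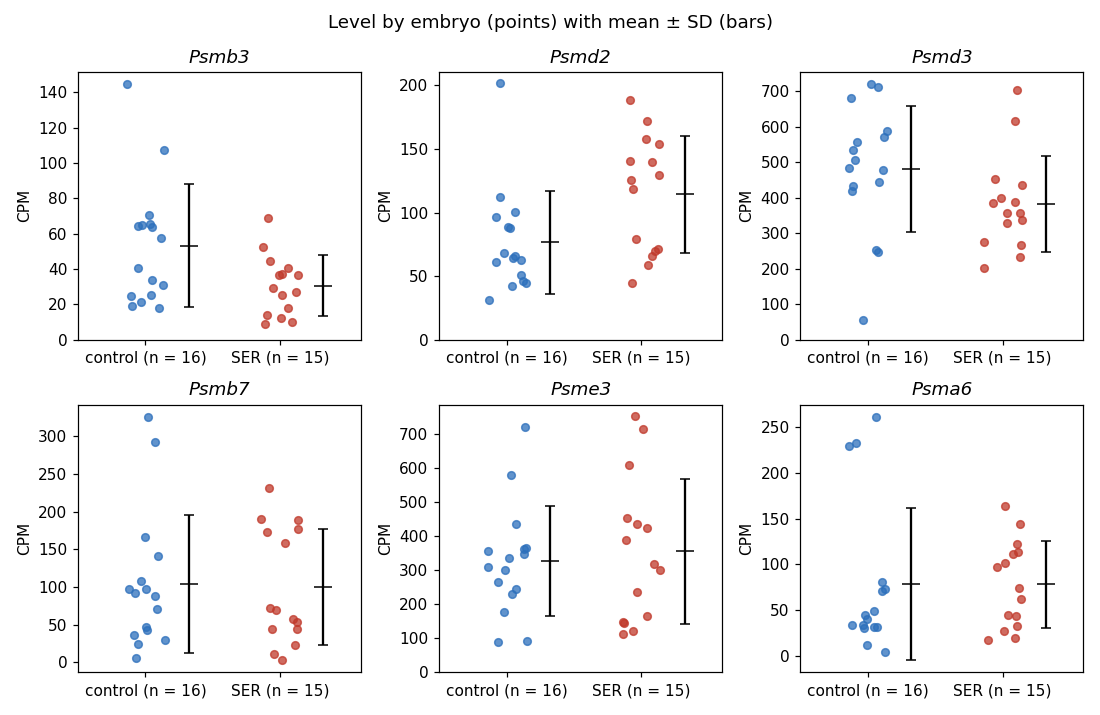
CPM of 6 genes in each embryo (points) with mean ± SD (black bars), for 16 control- and 15 SER-generated embryos. The groups overlap for each gene, Psmb3 has lower and Psmd2 higher medians in SER-generated embryos (29.2 against 49.2 and 126 against 65.1 CPM), and 3 control embryos lie above the others for Psma6.

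By role, estimates for the core were mostly lower and those for the 19S particle mostly higher in SER-generated embryos. The core median changed sign without 3 libraries, which were picked by their ratio of core to 19S transcripts. Of the 14 core genes, 3 had higher estimates, with a median log2 fold change of -0.21. Of the 18 genes of the 19S particle, 14 had higher estimates, with a median of 0.21. Over all 43, 25 estimates were higher and the median was 0.09, beside 52.7% higher and a median of 0.02 over all tested genes. No test of the split was made.
Without control replicates 1, 2 and 3, 9 of the 14 core genes had higher estimates with a median of 0.22, and the 19S particle had a median of 0.36 with 14 higher. An unadjusted p under 0.05 was then found for 6 of the 43 genes, against 9.05% of all genes. An adjusted p of 0.1 was passed by 0 proteasome genes, against 0.0476% of all genes. The 3 embryos were picked for values of the genes described, so these counts are a description and no test. Psma6 shows the change most clearly. Its log2 fold change was -0.13 (SE 0.44, edgeR) with all embryos and 0.94 (SE 0.36) without the 3. These had 229 to 261 CPM where the other control-generated embryos had at most 80.4. Psma1, Psma2 and Psmb2 likewise turned from -0.70, -0.65 and -0.65 to 0.28, 0.11 and 0.25. With all 5 libraries left out, the core median was 0.22 and 7 genes had an unadjusted p under 0.05, against 13.0% of all genes, and 0 passed an adjusted p of 0.1, against 0.262%.
Limma voom weighted the embryos from 0.0863 (SER replicate 15) and 0.185 (SER replicate 13) to 6.14 (control replicate 6), with 0.276, 0.511 and 0.236 for control replicates 1 to 3. By this test 7 proteasome genes passed an adjusted p of 0.1, against 9.89% of all tested genes, and 15 an unadjusted p of 0.05, against 23.1%. The 7 were Psmc2 (0.66), Psmd2 (0.63), Psmd6 (0.98) and Psmd13 (1.15), all higher on the log2 scale, and Psmb3 (-0.82), Psmd3 (-0.49) and Psmd9 (-0.86), with adjusted p from 0.0713 to 0.0962.

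**Figure D5:**
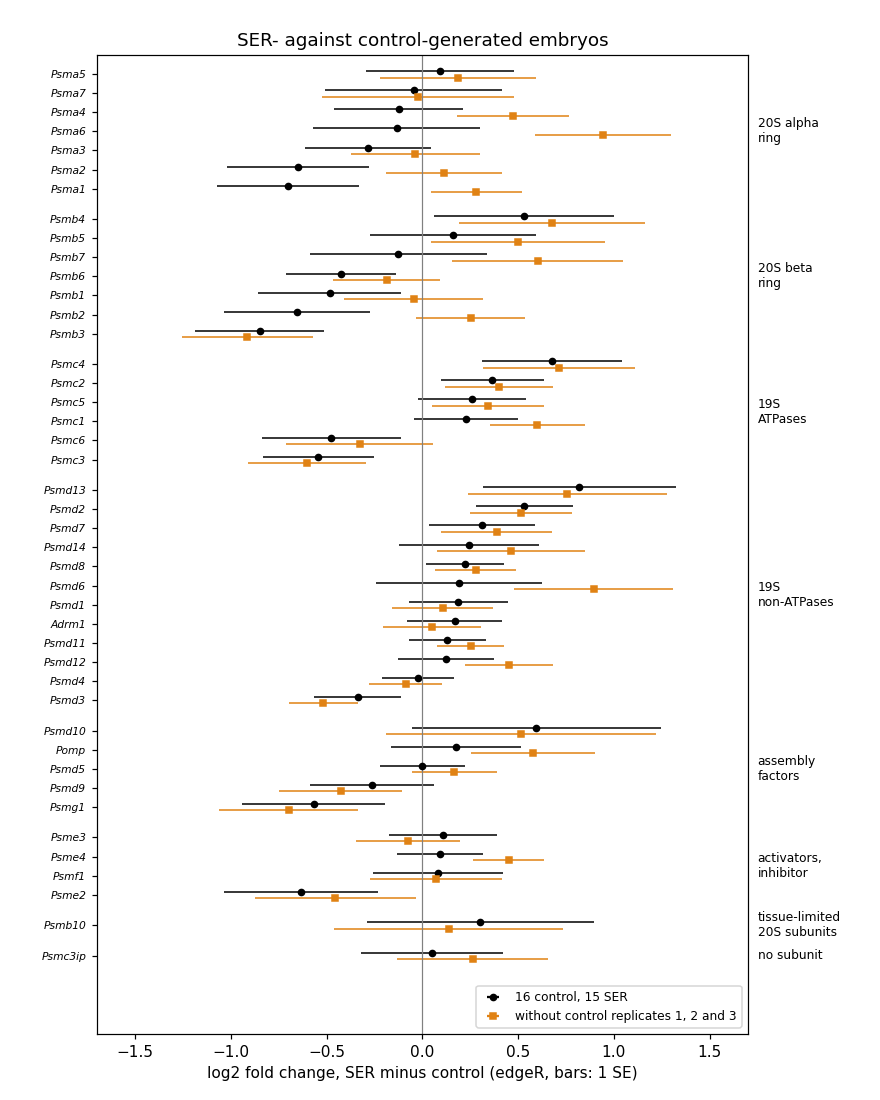
Log2 fold change (SER minus control, edgeR, bars 1 SE) of the 43 tested genes by role, with 16 control- and 15 SER-generated embryos (black) and without control replicates 1, 2 and 3 (orange). In black, 11 of 14 core genes lie below 0, and in orange 9 lie above it, while Psmb3 stays below and Psmd2 above in both.

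The catalytic subunits did not pass the test in either direction. The log2 fold changes were 0.16 (SE 0.43) for Psmb5, -0.42 (SE 0.29) for Psmb6 and -0.13 (SE 0.46) for Psmb7, with adjusted p of 0.935 or more by edgeR. Without control replicates 1, 2 and 3 they were 0.50 (SE 0.45), -0.19 (SE 0.28) and 0.60 (SE 0.45), so that of Psmb7 turned in sign. Other estimates that stood out in size were 0.82 (SE 0.50) for Psmd13 and 0.68 (SE 0.37) for Psmc4, both in the 19S particle, and -0.64 (SE 0.40) for Psme2 and -0.57 (SE 0.37) for Psmg1. Of the 4 genes of the 19S particle with lower estimates, the ATPase Psmc3 had the largest, -0.54 (SE 0.29).
Estimates for the main activators and Pomp were smaller than their errors with all embryos, at 0.11 (SE 0.28) for Psme3, 0.09 (SE 0.22) for Psme4 and 0.17 (SE 0.34) for Pomp. Without control replicates 1, 2 and 3 they were -0.07 (SE 0.27), 0.45 (SE 0.18) and 0.58 (SE 0.32). Without all 5 libraries Psme4 had 0.49 (SE 0.18, edgeR). These fits leave out embryos picked for values of proteasome genes, so no p-values are given. Psmd10 had 0.60 (SE 0.65), with 10 of 15 SER-generated embryos below the control median and SER replicate 15 far above, and -0.68 (SE 0.60) without the 5 libraries.
The 9 genes that failed the filter had wide errors when the filter was dropped, where their adjusted p ran from 0.497 to 0.987 by edgeR. Among them, Psmg4 had -1.55 (SE 0.90) and Psmg2 0.76 (SE 0.71), and Psmb8 -1.94 (SE 1.10) on 30 counts in all.

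Of 29 other genes that regulate, feed or accompany the proteasome, 28 were in the table and 27 were tested. None passed an adjusted p of 0.1 by edgeR, and 0 had an unadjusted p under 0.05, against 5.73% of all genes. Estimates were higher for 11 and lower for 16, with a median of -0.09. Nfe2l1, the transcription factor that induces proteasome genes when activity is short, had 210 ± 81.6 CPM (SD, n = 16) in the control group and 283 ± 100.01 CPM (SD, n = 15) in the SER group, a log2 fold change of 0.42 (SE 0.21, edgeR, adjusted p = 0.869). Nfe2l2, its relative in the stress response, had 17.6 CPM over all embryos and an estimate of -0.29 (SE 0.36), and Ddi2, the protease that releases Nfe2l1, 68.3 CPM and 0.23 (SE 0.35). Sem1, the 19S subunit outside the rule, had 47.0 ± 57.5 CPM in the control group and 26.8 ± 16.2 CPM in the SER group (log2 fold change -0.96, SE 0.50, edgeR, adjusted p = 0.869). The ubiquitin shuttle Rad23b (385 CPM), the adaptor Zfand5 (557 CPM), the polyubiquitin gene Ubb (515 CPM) and the ubiquitin-activating enzyme Uba1 (313 CPM) had estimates between -0.25 and 0.21. Of the stage markers tested, 3 of 11 oocyte genes and 10 of 12 zygotic genes had higher estimates in SER-generated embryos, and 0 of either had an unadjusted p under 0.05.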

How the data were processed

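Counts were analysed for 16 control- and 15 SER-generated single 2-cell embryos. The authors made Smart-seq3 libraries, aligned 5′ reads with molecular identifiers and internal reads by STAR, deduplicated them (UMI-tools for the former, Picard for the latter) and, after merging, ran featureCounts for gene-level counts. The deposited counts are whole numbers without normalization, and the submitters' processing notes name mm10. Batch per embryo, annotation, strand setting and tool versions are not given in the sources used here, so the authors' batch correction was not repeated. The study's methods also name DESeq2 at an adjusted p of 0.1.

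From these counts, CPM used each library's total. Groups were compared by edgeR 4.0.16 (R 4.3.3, quasi-likelihood, TMM, filterByExpr at min.count 10 and min.total.count 15, Benjamini-Hochberg over 8571 genes), and the standard error is the size of the log2 fold change divided by the square root of F. Exon lengths are those of principal transcripts of GENCODE vM21 on GRCm38, in which 20020 of 20544 symbols matched and 336 matched by an older symbol. Alternatives were other normalizations and filters, DESeq2 1.42.0, limma 3.58.1 voom, thinning, library total, 3 estimated clusters, the replicate number as a block, and each embryo left out. Leaving out 5 libraries and removing the length trend were chosen after seeing the data. The edgeR step was tested on simulated data. Among pairs of libraries within a group, 0 were identical. Intervals and limits from counts cover counting error only. The genes and lists were chosen with earlier results of these data known. Named are catalytic and tissue-limited subunits, ubiquitin receptors, Psmd14, Pomp, Psme3, Psme4, Psmc3ip, extremes of each class and genes at an unadjusted p under 0.05. Others (Psmd3, Psma6, Psmc3 and those of the correlations) were chosen after their values were seen.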

Additional observations from a re-analysis of the deposited data

How the results depend on the processing

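Under edgeR and each alternative with all embryos, 0 proteasome genes passed an adjusted p of 0.1, except DESeq2 with estimated clusters (1, Psmb3, adjusted p = 0.0581) and limma voom with sample quality weights (7). The count over all genes was 0 in the reported fit, 504 without the filter, 46 by DESeq2, 41 and 253 with the clusters in edgeR and DESeq2, 848 by voom, 4 without control replicates 1, 2 and 3 and 22 without all 5 libraries. The number of proteasome genes at an unadjusted p under 0.05 was 2, and 4 after thinning and 6 with library total. It was 4 and 5 with the clusters in edgeR and DESeq2, 15 by voom and 1 with the replicate block and library total. With the length trend removed it was 2, Psma2 and Psmc4, and 401 of 8571 genes in all. Psmb3 and Psmd2, the 2 of the reported fit, were not among these. With the replicate block and library total the 1 gene was Psmc6, and after thinning Psmb3 was among the 4 but Psmd2 was not. Without the 3 controls the number was 6 and without the 5 libraries 7, a description, since the 3 were picked for values of these genes. Leaving out each embryo gave 1 to 4, with 1 in 10 fits (control replicates 1, 6, 11 and 13, SER replicates 4, 6, 7, 8, 9 and 12) and 4 without control replicate 7, control replicate 16 or SER replicate 13.

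The median log2 fold change of the tested genes, 0.09, turned to -0.0014 after thinning, -0.043 with library total, -0.014 with clusters in DESeq2 and -0.35 with the replicate block and library total. The core median of -0.21 turned to 0.30 by voom and 0.087 with the length trend removed. Without the 3 controls it was 0.22, and without the 5 libraries 0.22. It was -0.44 with library total, and -0.63 with the block and library total, where the 19S median was -0.11. Leaving out each embryo kept the core between -0.36 and -0.11 and the 19S particle between 0.16 and 0.26. Of the 43 genes, 12 turned in sign by voom (7 of the core), 18 with the block and library total (10 of the 19S particle), 7 without the 3 controls, 9 without the 5 libraries, 9 with the length trend removed and 0 to 5 in the others, apart from single embryos left out. Among the 18 genes whose estimate exceeded its SE, these turned as follows. By voom, Psma1 was 0.24, Psma2 0.50, Psmb1 0.12 and Psmb2 0.40. Without the 3 controls, Psma1 was 0.28, Psma2 0.11 and Psmb2 0.25, and without the 5 libraries 0.28, 0.11 and 0.30. With the length trend removed Psmb6 was 0.034. With the replicate block and library total, Psmb4 was -0.052, Psmc4 -0.23, Psmd3 0.23, Psmd7 -0.039, Psmd8 -0.14 and Psmg1 0.029. The cause of these was not tested.

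No label ties a replicate number to a batch. Over 15 same-numbered pairs the correlation of deviations ran from -0.37 to 0.49, 8 exceeded 0.1, and 4 embryos matched their own number best, so the numbers were not taken to pair the embryos. With the block alone, the median of the tested genes was 0.02 and 3 had an unadjusted p under 0.05. Batches could not be entered. A count of 0 allows a level of up to 0.971 to 5.63 CPM, by library.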
